A study of Mus musculus with 8 samples.

Results

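The genes described here are 31 genes of the lysosome that were looked up by name in the deposited gene count table. All 31 were found among its 28073 rows, and all 31 had enough counts to be tested, out of 14088 tested genes. They comprise the transcription factors Tfeb and Tfe3, 5 lysosomal membrane proteins, 9 proteases, 9 glycosidases, 5 hydrolases or activators of lipid and sulfate breakdown, and the autophagy receptor Sqstm1. Total RNA came from the livers of mice of the inbred strain C57BL/6 at an age of 21 to 22 weeks. Of the mice, 4 had been fed a control diet, which the design calls low-fat, and 4 a high-fat diet, and the labels name no genotype, drug or other treatment. The sources used here do not give sex, time on the diet or time of collection. The series asks how the high-fat diet changes nuclear receptors of the liver and the genes that they control.

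Lysosomes are acidic organelles that break down proteins, glycans and lipids delivered by endocytosis and autophagy. Most soluble hydrolases are tagged with mannose 6-phosphate in the Golgi and carried to the lysosome by receptors, and a proton pump in the membrane keeps the lumen acidic. The related factors TFEB and TFE3 enter the nucleus when the kinase complex mTORC1 is less active, and bind the CLEAR element, built around the core CACGTG, in the promoters of many lysosomal genes. In liver, lysosomes degrade lipid droplets, glycogen, lipoprotein lipids and worn-out organelles, and they are abundant in hepatocytes and in Kupffer cells, the resident macrophages.

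Promoters are shown because TFEB and TFE3 read this class of sequence. Those of Naglu, Ctsl and Ppt1 are shown because these genes differed between the diets in the test below. Ctsh, which differed too, had no window. Stretches of Lamp1 and Cln3, which did not pass that test, are shown for their matches. RefSeq promoter windows (GRCm38.p6, 250 bases before to 50 after an annotated start) matched 29 of the 31 genes by symbol. They were searched for the core CACGTG, which reads the same on both strands, and for the longer forms TCACGTG (with its reverse complement CACGTGA), TCACGTGA and the full CLEAR element (TCACGTGA with G before and C after it), each of which contains the core. Capitals below mark the longest of these forms at each core, written 5′ to 3′ on the strand of the gene.
Naglu (chr11:101069844-101070143, plus strand): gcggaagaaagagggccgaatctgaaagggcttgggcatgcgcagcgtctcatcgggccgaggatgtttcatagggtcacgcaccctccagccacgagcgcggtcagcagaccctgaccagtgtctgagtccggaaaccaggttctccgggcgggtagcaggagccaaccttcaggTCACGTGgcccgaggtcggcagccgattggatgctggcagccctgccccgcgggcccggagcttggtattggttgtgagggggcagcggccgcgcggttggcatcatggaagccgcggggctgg
Ctsl (chr13:64370471-64370770, minus strand): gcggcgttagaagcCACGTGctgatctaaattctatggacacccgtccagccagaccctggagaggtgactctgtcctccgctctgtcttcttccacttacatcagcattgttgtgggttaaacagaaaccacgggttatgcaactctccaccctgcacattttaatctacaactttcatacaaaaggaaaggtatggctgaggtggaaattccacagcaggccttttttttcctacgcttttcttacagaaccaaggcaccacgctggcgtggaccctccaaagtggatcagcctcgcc
Ppt1 (chr4:122835977-122836276, plus strand): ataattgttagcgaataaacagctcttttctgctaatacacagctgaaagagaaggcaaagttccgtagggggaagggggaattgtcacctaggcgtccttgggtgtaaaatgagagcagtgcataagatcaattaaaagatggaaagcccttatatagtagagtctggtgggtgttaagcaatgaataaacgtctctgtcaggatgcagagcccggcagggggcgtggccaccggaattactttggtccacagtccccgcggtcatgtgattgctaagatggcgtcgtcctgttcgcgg
Lamp1 (chr8:13159086-13159155, plus strand): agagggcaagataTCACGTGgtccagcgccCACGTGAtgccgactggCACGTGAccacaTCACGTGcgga
Cln3 (chr7:126583342-126583391, minus strand): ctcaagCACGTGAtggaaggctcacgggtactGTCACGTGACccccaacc

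Naglu carried TCACGTG centred at position -70 from its annotated start, and Ctsl carried only the core, at position -233. The RefSeq start of Ctsl lies 214 bases upstream of the gene start in the deposited table. The window of Ppt1 held none of the searched forms. Lamp1 had 4 cores between positions -58 and -12, and Cln3 was the single gene of the 29 with the full 10-base element, at a second annotated start inside the gene. The core was present in 11 of the 29 genes (37.9%), against 8.09% of all 27025 genes with a RefSeq window and 11.6% of the tested genes with one. TCACGTGA was present in 5 of 29 genes (17.2%), namely Cln3, Ctsa, Ctsd, Gla and Mcoln1, against 2.08% of the tested genes with a window. In Ctsa, too, it lay at a second annotated start inside the gene, and the window at the outer start held no core. A match describes the letters in these windows and shows no binding.

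Total counts per library lay between 26643020 and 30013106 with no difference between diets outside the spread of the libraries (p = 0.514 in a two-sided exact permutation test on group means, n = 4 per group, where 70 splits allow no p below 0.0286). A single count was worth 0.0338 to 0.0388 CPM (counts relative to the TMM-scaled library total), and no lysosomal gene had fewer than 139 counts in a library. The scaling factors were 0.955 to 0.976 in control and 1.019 to 1.067 in high-fat libraries. With library totals alone the median log2 fold change of all tested genes moved from 0.0069 to 0.10, and the share of lower genes among all called genes from 60.9% to 32.5%.

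On the high-fat diet most lysosomal genes were measured close to their control level. Of the 31 genes, 3 fell and 1 rose by edgeR's quasi-likelihood test at an adjusted p of 0.05 over all tested genes. Those that fell were the cathepsins Ctsl and Ctsh and the glycosidase Naglu, and the gene that rose was Ppt1, a thioesterase. Over all tested genes 9.61% were called, 5.86% lower and 3.75% higher, so the 4 calls among 31 (12.9%) lay near the share of all genes. At an unadjusted p of 0.05, 8 of the 31 passed, against 24.9% of all tested genes. The median log2 fold change (high-fat over control) of the 31 was -0.02, and the median of its absolute value was 0.13, against 0.16 over all tested genes. For 25 of the 27 genes that were not called, the 95% interval of the difference stayed within 1.5-fold in either direction, and for all 27 it stayed within 2-fold. The exceptions were Ctss and Hexa, whose intervals reached up to 1.61-fold and 1.65-fold of the control level. The adipocyte transcript Adipoq had 42 counts in control replicate 1, 32 in control replicate 4 and at most 10 elsewhere. Without these 2 controls 2 of the 31 genes fell (Ctsl and Naglu) and none rose. The summed level of the 31 was 5934 to 6647 CPM in control and 5895 to 6033 CPM in high-fat libraries. In bulk tissue, fewer cells of a type and less RNA per cell cannot be told apart.

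**Figure D1:**
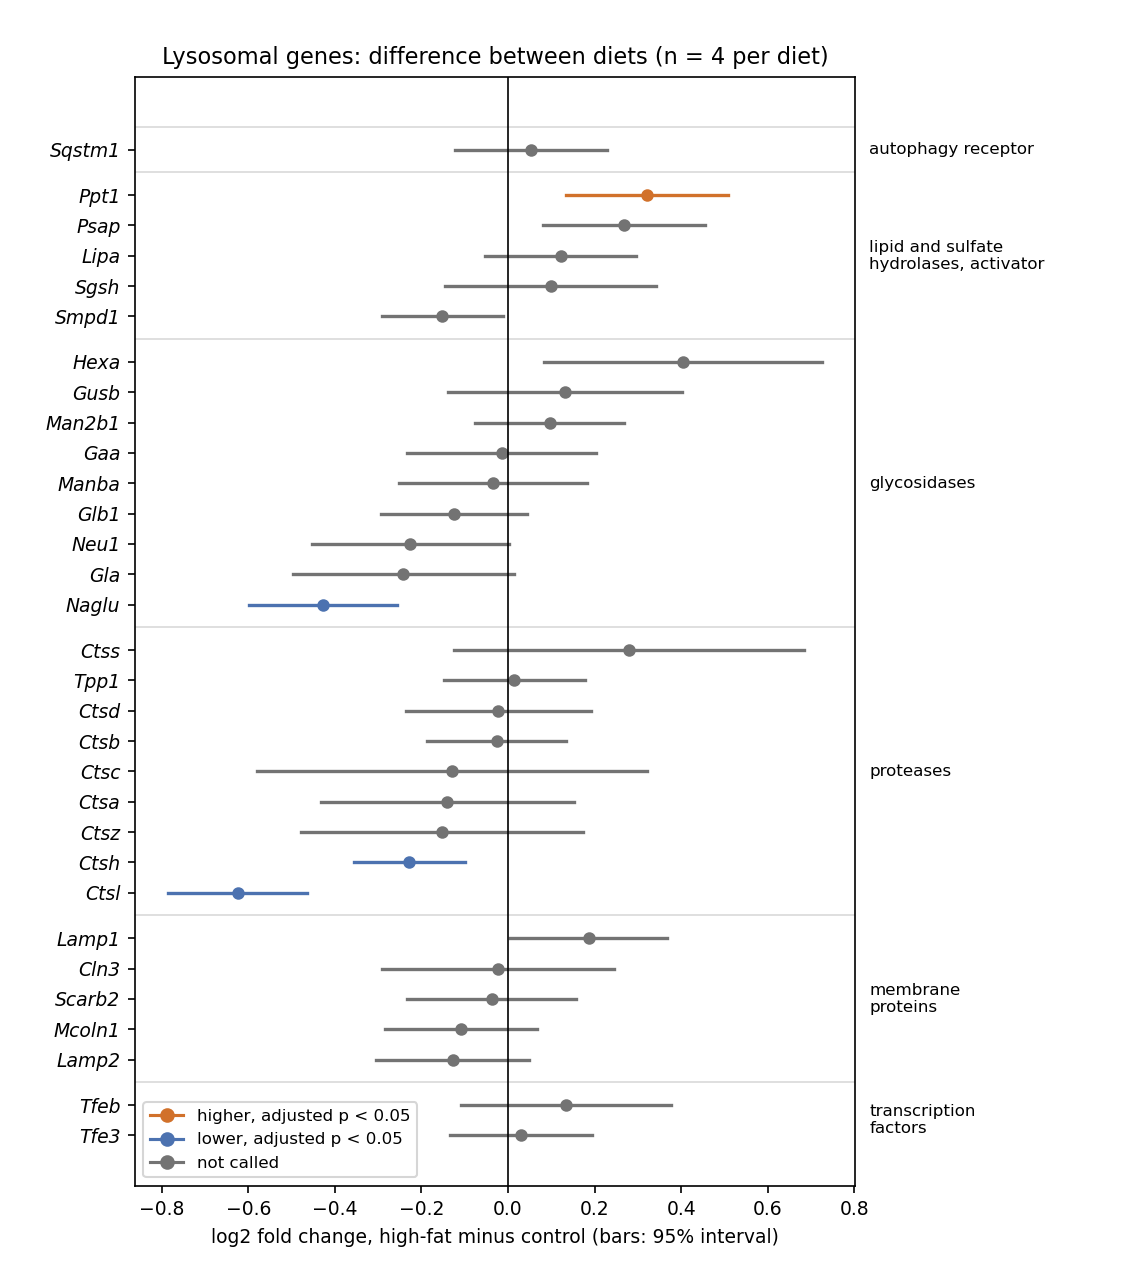
Log2 fold change of each of the 31 lysosomal genes, high-fat minus control, with its 95% interval from edgeR (n = 4 per diet), grouped by role. Ctsl, Ctsh and Naglu lie below 0 and Ppt1 above 0 with an adjusted p under the threshold of 0.05; grey genes were not called.

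The transcription factor genes had close levels on both diets. Tfeb had 5.39, 6.48, 6.76 and 5.92 CPM in control replicates 1 to 4 and 6.26, 6.66, 7.34 and 6.68 CPM in high-fat replicates 1 to 4. These ranges overlapped, and the log2 fold change was 0.13 ± 0.11 (SE; edgeR adjusted p = 0.488). Tfe3 had 20.5 to 22.5 CPM in control and 20.1 to 24.2 CPM in high-fat libraries, a difference of 0.03 ± 0.07 in log2 units (edgeR adjusted p = 0.836). Their intervals reached from 0.928 to 1.298 times the control level for Tfeb and from 0.911 to 1.14 times for Tfe3. These are transcript levels; the activity of both proteins is set largely by their location in the cell, which counts do not measure.

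None of the 5 membrane protein genes was called. Lamp1, a heavily glycosylated coat protein of the lysosomal membrane, had 614, 608, 704 and 713 CPM in control replicates 1 to 4 and 756, 712, 779 and 757 CPM in high-fat replicates 1 to 4. All but 1 of the high-fat values lay above every control value. The log2 fold change was 0.19 ± 0.08 (edgeR adjusted p = 0.188). Lamp2, its paralog, which also serves chaperone-mediated autophagy, had 719 ± 57.4 CPM in control and 658 ± 24.6 CPM in high-fat libraries (mean ± SD, n = 4), -0.13 ± 0.08 in log2 units (edgeR adjusted p = 0.356). The groups overlapped for both, and the difference between the genes was not tested. Scarb2, the carrier of glucocerebrosidase to the lysosome, had 312 ± 24.4 and 304 ± 26.7 CPM. The cation channel Mcoln1 had 23.1 ± 2.36 and 21.5 ± 0.443 CPM, and Cln3, a membrane protein lost in a childhood neuronal storage disease, 10.2 ± 1.43 and 10.01 ± 0.942 CPM. Cln3 overlaps Apobr on the opposite strand, with 28.3% of its mean count; the strand setting of the counting is not given.

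Among the 9 proteases, Ctsl fell most. Ctsl encodes cathepsin L, a cysteine endopeptidase of the papain family (ENSMUSG00000021477.8, mm10 chromosome 13, 64363214 to 64370306, minus strand). It had 819, 764, 843 and 824 CPM in control replicates 1 to 4 and 559, 531, 490.4 and 529 CPM in high-fat replicates 1 to 4. Every high-fat library lay below every control library, with a gap far wider than the spread within either diet. The mean fell from 813 ± 34.0 to 527 ± 28.0 CPM, to 0.649 times the control level (95% interval 0.580 to 0.725; log2 fold change -0.62 ± 0.07, edgeR adjusted p = 0.00229). Ctsl passed in all 20 alternative settings, with log2 fold changes from -0.68 to -0.53. It made up 13.2% ± 0.527 of the summed CPM of the 31 genes in control and 8.83% ± 0.553 in high-fat libraries. Without Ctsl, the other 8 proteases summed to 1637 to 2060 CPM in control and 1671 to 1741 CPM in high-fat libraries, so their sums overlapped.

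Ctsh, or cathepsin H, an aminopeptidase of the same papain family (mm10 chromosome 9, 90054152 to 90076089, plus strand), showed a smaller fall. It had 227, 220.3, 232 and 229 CPM in control replicates 1 to 4 and 196, 200.4, 184 and 195 CPM in high-fat replicates 1 to 4. The groups did not overlap, and the spread within each was small. The log2 fold change was -0.23 ± 0.06 (edgeR adjusted p = 0.0357), or 0.854 times the control level. This call lay near the threshold: with 1 library left out it passed only without control replicate 4, with edgeR adjusted p from 0.0499 to 0.0945 and log2 fold changes from -0.25 to -0.20. It did not pass with library totals alone (-0.13, edgeR adjusted p = 0.122). Besides Ctsl and Ctsh, 7 proteases were not called.

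Ctsb, the papain-family cathepsin B, had 562 ± 36.7 CPM in control and 552 ± 18.2 CPM in high-fat libraries, and the aspartic protease Ctsd 478 ± 41.99 and 470.3 ± 47.9 CPM. Tpp1, a tripeptidyl peptidase, had 42.1 ± 2.94 and 42.5 ± 3.09 CPM. For these genes the log2 fold change lay between -0.03 and 0.01, and the lowest edgeR adjusted p was 0.857. Ctsd shares its strand with an overlapping gene model that had 47.5% of its mean count. Ctsb overlaps the squalene synthase gene Fdft1 on the opposite strand, which had 12.4% of its mean count and fell by 2.02 in log2 units (edgeR adjusted p = 0.00173).

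The remaining proteases varied more from mouse to mouse in the control group than in the high-fat group. By coefficient of variation the same held for 19 of the 31 genes. It also held for 64.6% of the 9695 tested genes with a control mean of 5 CPM or more. Ctsa, a carboxypeptidase that also shields beta-galactosidase and neuraminidase, had 119.6, 128, 183 and 119 CPM in control replicates 1 to 4 and 119 to 127 CPM in high-fat libraries. Ctsz, or cathepsin Z, a carboxypeptidase of the papain family, had 188, 190.0, 287 and 175.5 CPM in control replicates and 181 to 203 CPM in high-fat libraries. For both genes control replicate 3 stood well above every other library of either diet. Without it their log2 fold changes moved from -0.14 to 0.03 and from -0.15 to 0.03, and neither was called in any alternative setting. Ctsa overlaps Pltp, a phospholipid transfer protein gene on the opposite strand, with 37.2% of its mean count, and Ctsz overlaps Nelfcd on the opposite strand, with 15.6%.

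Ctss and Ctsc are known for high expression in macrophages and other myeloid cells. Ctss, or cathepsin S, had 40.6, 78.2, 64.6 and 47.7 CPM in control replicates 1 to 4 and 63.7, 77.3, 66.8 and 72.8 CPM in high-fat replicates 1 to 4 (log2 fold change 0.28 ± 0.18, edgeR adjusted p = 0.378). Ctsc, or dipeptidyl peptidase I, had 83.1, 107, 97.8 and 52.7 CPM in control and 76.7, 96.3, 66.7 and 71.4 CPM in high-fat replicates (-0.13 ± 0.20, edgeR adjusted p = 0.736). Both genes were high in control replicate 2 and high-fat replicate 2, and the groups overlapped. The direction of Ctss turned without the 2 controls with most Adipoq (-0.03), and with 1 library left out its log2 fold change ran from 0.14 (without control replicate 1) to 0.46 (without control replicate 2). That of Ctsc ran from -0.30 (without control replicate 4) to -0.0031 (without control replicate 2), and neither gene was called in any alternative. The summed level of 18 Kupffer cell and macrophage markers was 719, 1540.3, 1033 and 717 CPM in control and 962, 1348, 899 and 1043 CPM in high-fat replicates 1 to 4, and was likewise highest in replicate 2 of each diet. Of these 18 markers 1 rose, the chemokine receptor gene Cx3cr1 (0.719 ± 0.203 and 1.69 ± 0.639 CPM, log2 fold change 1.23 ± 0.32, edgeR adjusted p = 0.0410), and none fell. Its groups overlapped, and it overlaps Gorasp1, Csrnp1 and Wdr48, which had more counts, and Xirp1, which had fewer. The call of Cx3cr1 was lost in 6 of the 8 fits with 1 library left out, namely all but those that omit control replicate 1 or high-fat replicate 2 (edgeR adjusted p up to 0.103). The part of macrophage content in Ctss and Ctsc was not tested.

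**Figure D2:**
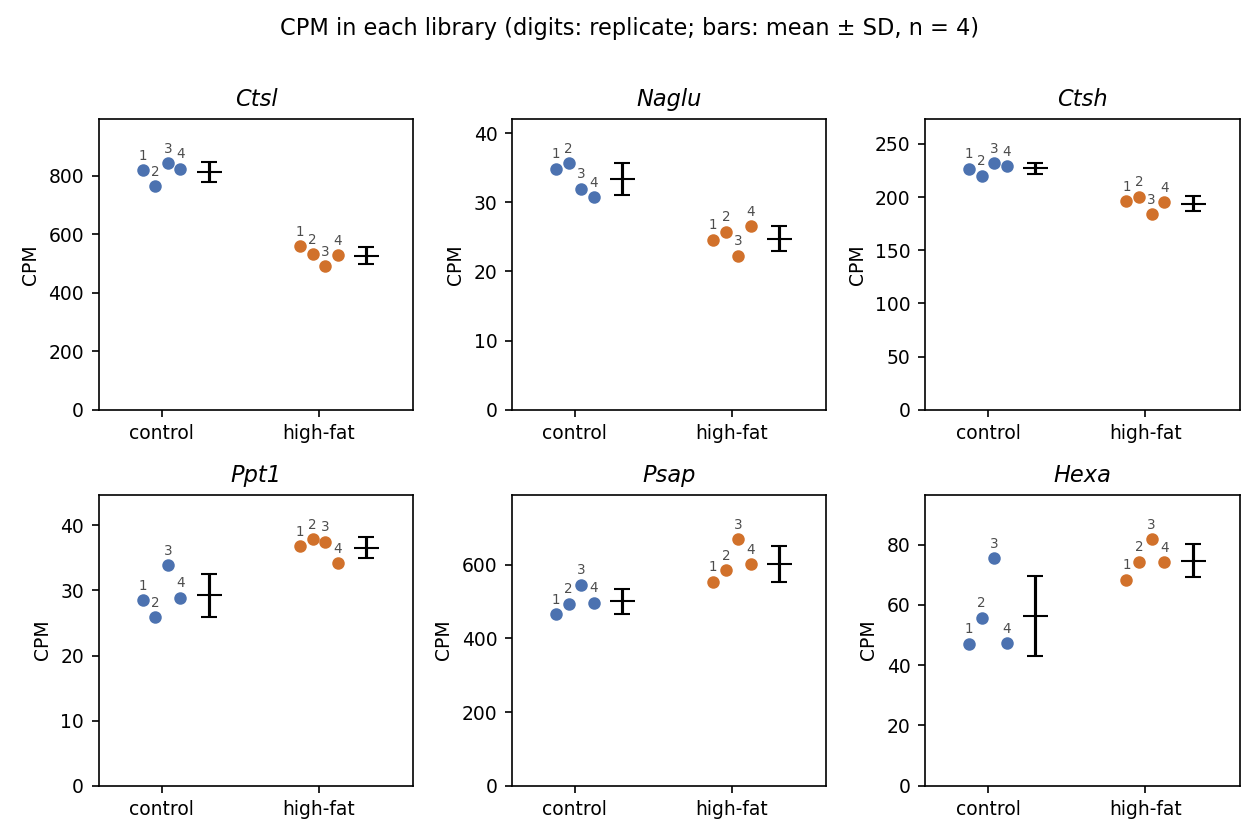
CPM of 6 lysosomal genes in each library (numbered by replicate), with the mean ± SD of 4 libraries per diet, on axes that start at 0. The diets do not overlap for Ctsl, Naglu, Ctsh, Ppt1 and Psap, and for Hexa control replicate 3 lies among the high-fat libraries.

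Of the 9 glycosidases, 1 fell and none rose. Naglu, which removes terminal N-acetylglucosamine from heparan sulfate (mm10 chromosome 11, 101070012 to 101077672, plus strand), had 34.9, 35.7, 32.0 and 30.8 CPM in control replicates 1 to 4. In high-fat replicates 1 to 4 it had 24.6, 25.7, 22.3 and 26.5 CPM. All high-fat values lay below all control values. The log2 fold change was -0.43 ± 0.08 (edgeR adjusted p = 0.0101), to 0.743 times the control level, and the call passed with any 1 library left out (edgeR adjusted p from 0.00989 to 0.0312). Sgsh, which acts on the same glycan by removing sulfate, had 8.10 ± 0.748 and 8.67 ± 0.886 CPM (0.10 ± 0.11, edgeR adjusted p = 0.626).

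Hexa, the alpha subunit of beta-hexosaminidase that degrades GM2 ganglioside, had the largest positive log2 fold change of the 31 but was not called. It had 47.1, 55.7, 75.4 and 47.2 CPM in control replicates 1 to 4 and 68.3, 74.3, 81.9 and 74.2 CPM in high-fat replicates 1 to 4. Control replicate 3 lay within the high-fat range and the other controls below it. The log2 fold change was 0.40 ± 0.14 (edgeR adjusted p = 0.112). Without control replicate 3 it was 0.58 (edgeR adjusted p = 0.00658), whereas without the 2 controls with most Adipoq it was 0.18 (edgeR adjusted p = 0.452) and with 1 surrogate variable 0.27 (edgeR adjusted p = 0.162). Gm2a, the GM2 activator that presents this lipid to the enzyme, fell from 113 ± 25.0 to 70.04 ± 5.28 CPM (-0.695 ± 0.15, edgeR adjusted p = 0.0202). That call did not survive leaving out control replicate 2, high-fat replicate 1, high-fat replicate 2 or high-fat replicate 4 (edgeR adjusted p up to 0.0597, log2 fold changes from -0.84 to -0.59).

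The other 7 glycosidases were not called, with log2 fold changes from -0.24 to 0.13. Neu1, a sialidase, had 41.5 ± 6.15 CPM in control and 35.5 ± 2.27 CPM in high-fat libraries (-0.23 ± 0.10, edgeR adjusted p = 0.204), with its highest value, 50.2 CPM, in control replicate 3. Without that library its log2 fold change was -0.12 (edgeR adjusted p = 0.361). Gla, the alpha-galactosidase deficient in Fabry disease, had 7.35 ± 0.761 and 6.22 ± 0.575 CPM (-0.24 ± 0.11, edgeR adjusted p = 0.224). Gaa, the acid glucosidase that degrades lysosomal glycogen, had 80.9 ± 8.87 and 80.1 ± 8.15 CPM (-0.01 ± 0.10, edgeR adjusted p = 0.942). Glb1 (beta-galactosidase), Gusb (beta-glucuronidase) and the mannosidases Man2b1 and Manba had log2 fold changes of -0.12, 0.13, 0.10 and -0.03, with SE from 0.08 to 0.12. Glb1 contains Tmppe on its own strand, with 32.5% of its mean count.

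Among the genes of lipid and sulfate breakdown, 1 of 5 rose and none fell. Ppt1, which removes palmitate from lipid-modified proteins (mm10 chromosome 4, 122836242 to 122859175, plus strand), had 28.5, 25.9, 33.8 and 28.9 CPM in control replicates 1 to 4 and 36.8, 37.9, 37.5 and 34.2 CPM in high-fat replicates 1 to 4. The groups did not overlap, but the highest control and the lowest high-fat value lay close together. The log2 fold change was 0.32 ± 0.08 (edgeR adjusted p = 0.0413), or 1.25 times the control level. With 1 library left out, Ppt1 passed only without control replicate 3 (0.398, edgeR adjusted p = 0.0102). Otherwise edgeR gave adjusted p from 0.0586 to 0.106 with log2 fold changes from 0.27 to 0.36. Ppt1 overlaps Cap1 on the opposite strand over a short stretch at its end; Cap1 had 235% of its mean count and a log2 fold change of 0.09.

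Psap encodes prosaposin, the precursor of the saposins that lift sphingolipids out of membranes for their hydrolases. It had 466, 494, 546 and 497 CPM in control replicates 1 to 4 and 555, 585, 670.1 and 602 CPM in high-fat replicates 1 to 4. The groups did not overlap, yet the gene missed the threshold (log2 fold change 0.27 ± 0.08, edgeR adjusted p = 0.0764). It passed with DESeq2 (adjusted p = 0.0118) and with library totals alone (0.36, edgeR adjusted p = 0.0327), out of a range up to 0.284 over its alternatives. Of all tested genes 17.3% had diets that did not overlap: 7.28% had all high-fat libraries above all control libraries and 9.97% all below, and of the 31 genes 2 (Ppt1 and Psap) and 3 (Ctsl, Ctsh and Naglu) did. Lipa, the acid lipase of cholesteryl esters and triglycerides, had 306 ± 25.0 and 333 ± 18.0 CPM (0.12 ± 0.08, edgeR adjusted p = 0.373). Smpd1, acid sphingomyelinase, had 57.9 ± 2.43 and 52.1 ± 3.30 CPM (-0.15 ± 0.06, edgeR adjusted p = 0.163), with an interval of 0.818 to 0.991 times the control level.

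Sqstm1, the p62 receptor that links ubiquitinated cargo to autophagosomes, had 451 ± 32.8 CPM in control and 468 ± 27.4 CPM in high-fat libraries (0.05 ± 0.08, edgeR adjusted p = 0.718). The 95% interval ran from 0.919 to 1.17 times the control level. The control libraries had 411 to 491 CPM and the high-fat libraries 444 to 503 CPM, so the ranges overlapped in part.

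**Figure D3:**
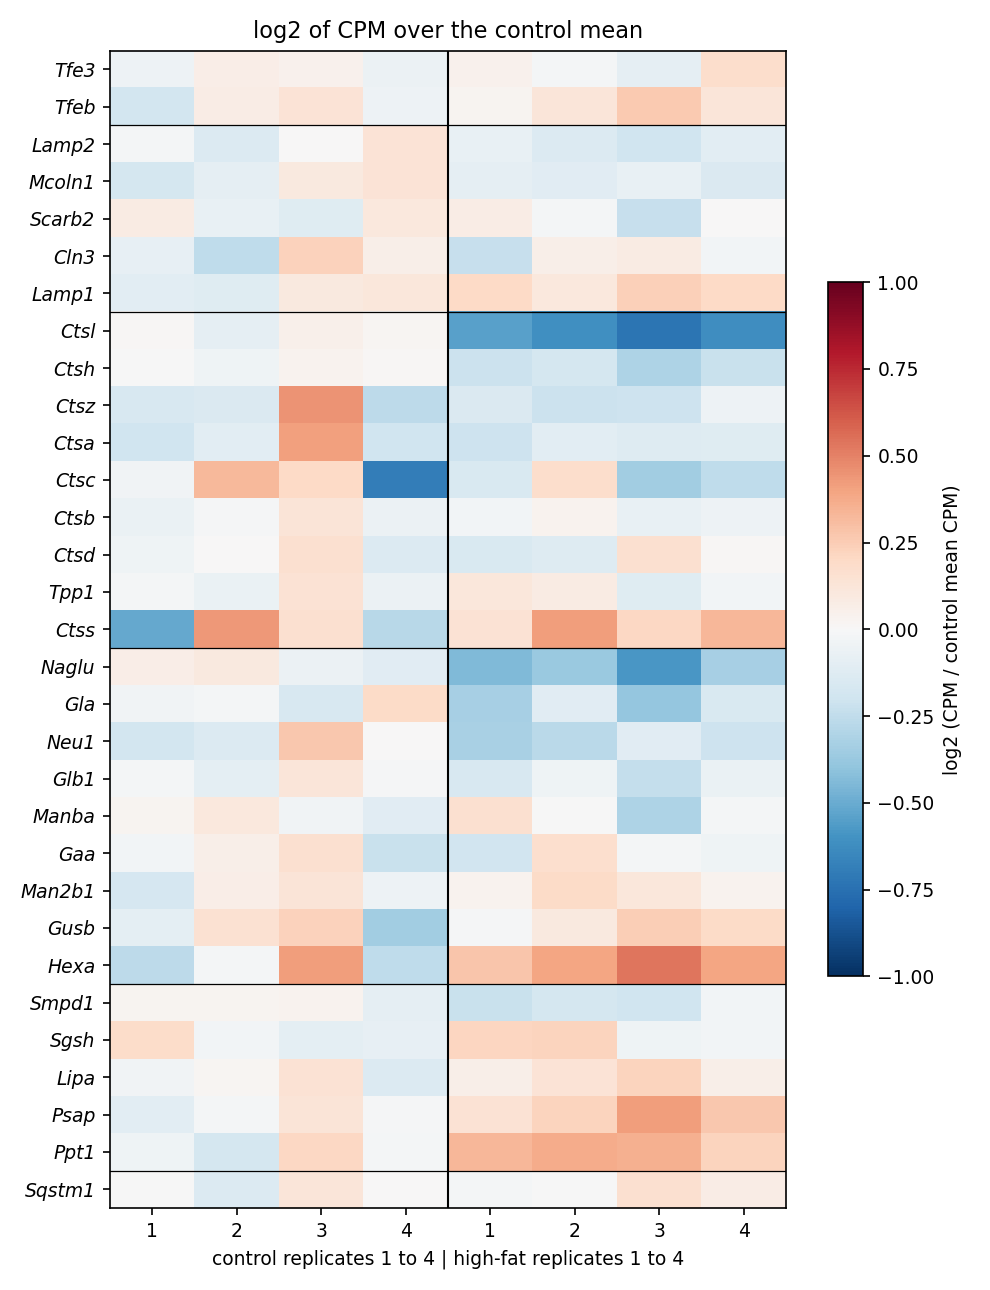
Log2 ratio of each library's CPM to the mean of the 4 control libraries, for the 31 genes grouped by role; red is above and blue below the control mean. Ctsl and Naglu are blue in all 4 high-fat libraries, and the column of control replicate 3 is red for Ctsz, Ctsa and Hexa.

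Control replicate 3 had the highest value of the 4 controls for 20 of the 31 genes, and control replicate 1 for 1. Over all tested genes control replicate 3 was highest for 23.8%. Its median deviation from the control mean was 0.13 on the log2 scale over the 31 genes and -0.0009 over all tested genes. Of the 31 genes 11 were highest in this library among all 8, Ctsa, Ctsb and Neu1 among them. Its summed hepatocyte marker level was also the highest, 107124 CPM against 66178 to 91596 CPM in the other controls. Alb led this sum, and not every marker followed it. The hepatocyte markers Ahsg and Serpina1a were lowest of the controls in this library, with 5014 and 1070 CPM. The part of control replicate 3 in the lysosomal values was not tested, beyond the fits without it given here. The coefficient of variation had a median of 8.79% over the 31 genes in control and 6.64% in high-fat libraries. The 9695 tested genes with a control mean of 5 CPM or more had medians of 9.49% and 7.62%.

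**Figure D4:**
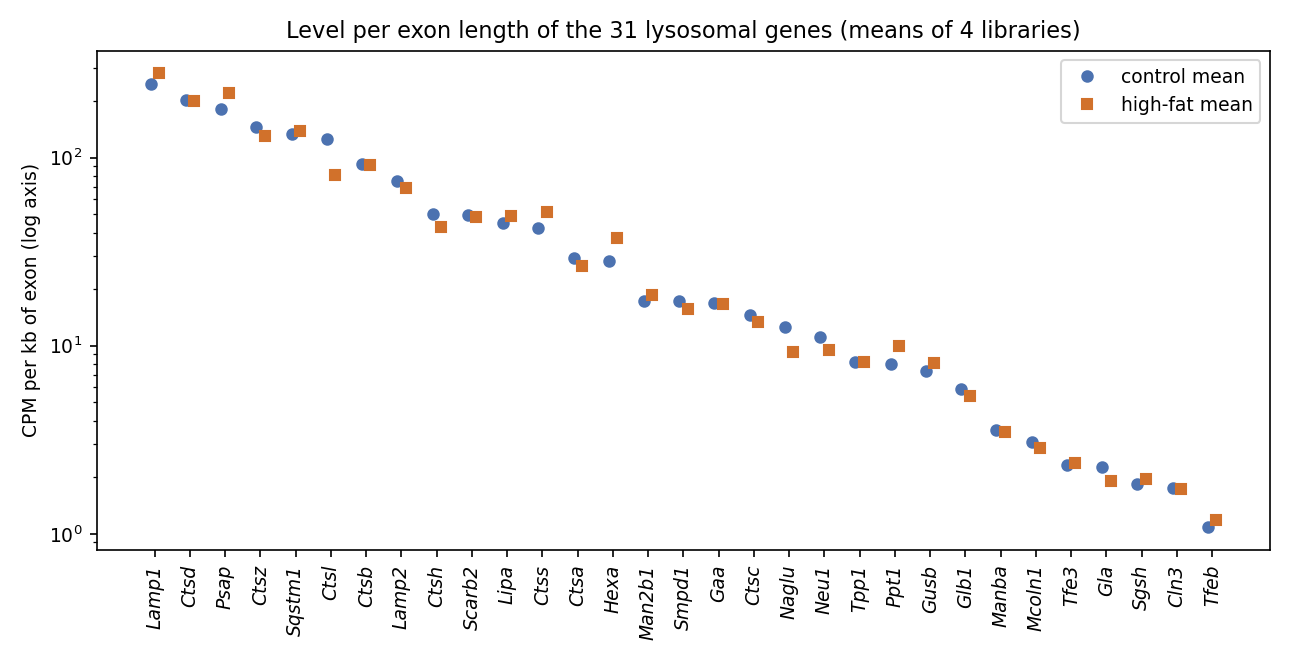
Mean CPM per kilobase of exon on each diet (log axis, n = 4), ordered by the control level. Lamp1, Ctsd and Psap lead, Tfeb is lowest, and Ctsl is the gene near the top with the widest gap between the diets.

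Levels of different genes were compared per kilobase of exon (all annotated exons of a gene merged, GENCODE M21). On this scale the 31 genes spanned 228-fold in the control group. Lamp1 was highest with 247 CPM per kilobase in control and 281 in high-fat libraries, followed in control by Ctsd with 203, Psap with 182 and Ctsz with 146. Psap was second in high-fat libraries, with 220 CPM per kilobase, ahead of Ctsd with 200.03. Ctsl stood sixth in control with 125 and seventh in high-fat libraries with 81.2, behind Ctsb with 91.2. Tfeb was lowest on both diets, with 1.08 and 1.19 CPM per kilobase. Merged exons count rarely used parts of a gene as well, so these levels are lower than those of the main transcript. The lowering differs by gene, so the order and the span depend on the annotation. For Ctsl the merged exons held 6489 bases, close to the whole length of the gene in the deposited table. Differences between neighbours in the order were not tested.

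The wider lysosomal pathway was described with 6 lists that hold none of the 31 genes. Of their 179 tested genes 4 rose and 13 fell (9.50%, against 9.61% of all tested genes), with a median log2 fold change of 0.0013. Of the 14 named from these lists, 6 passed with any 1 library left out, namely Scpep1, Laptm4b, Slc46a3, Mfsd12, Atp6v1g1 and Gnptab. Without the 2 controls with most Adipoq, Laptm4b, Slc46a3 and Gnptab did not pass (edgeR adjusted p = 0.0584, 0.0627 and 0.0825), and Gnptab also missed the threshold without a filter on low counts. Among 41 other hydrolases and cofactors 3 fell and none rose: Gm2a, the carboxypeptidase-like gene Scpep1 (40.6 ± 5.79 and 27.8 ± 1.72 CPM, -0.55 ± 0.10, edgeR adjusted p = 0.0116), and Ctsf, cathepsin F of the papain family. Ctsf had 23.2 ± 1.22 and 19.2 ± 1.39 CPM (-0.27 ± 0.07, edgeR adjusted p = 0.0459). With 1 library left out it passed only without high-fat replicate 4, with edgeR adjusted p otherwise up to 0.127.

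Among 40 tested membrane proteins and transporters 3 rose and 4 fell, 17.5% of the list, against 9.61% of all tested genes. This was the highest share of the 6 lists, which together had 9.50%. The largest fall was that of Slc46a3, a lysosomal solute transporter, from 48.3, 53.9, 32.7 and 46.1 CPM in control replicates 1 to 4 to 25.7, 25.5, 15.9 and 23.8 CPM in high-fat replicates 1 to 4 (-0.99 ± 0.18, edgeR adjusted p = 0.0106). The groups did not overlap, and replicate 3 was lowest on each diet. Mfsd12, a cysteine importer of lysosomes and melanosomes, fell from 14.4 ± 2.18 to 9.55 ± 0.470 CPM (-0.59 ± 0.11, edgeR adjusted p = 0.0131); it overlaps Fzr1 on the opposite strand, which had 97.7% of its mean count. Laptm4b, which spans the lysosomal membrane, went up from 19.25 ± 1.603 to 25.8 ± 1.0199 CPM (0.42 ± 0.07, edgeR adjusted p = 0.00901). The heme transporter Slc48a1 rose from 29.2 ± 1.93 to 39.2 ± 4.72 CPM (0.42 ± 0.09, edgeR adjusted p = 0.0193), a call lost without control replicate 1 or 2 (edgeR adjusted p up to 0.0554).

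Of 19 tested V-ATPase subunits, which form the proton pump, 1 fell and none rose. Atp6v1g1, a subunit of its peripheral stalk, went from 55.3 ± 7.14 to 39.7 ± 2.96 CPM (-0.48 ± 0.10, edgeR adjusted p = 0.0157). Of 18 genes of mannose 6-phosphate tagging and sorting, 1 rose and 1 fell. Gnptab, the phosphotransferase that begins the tag, had 11.99, 12.6, 12.04 and 12.3 CPM in control replicates 1 to 4 and 15.8, 15.0, 15.1 and 14.8 CPM in high-fat replicates 1 to 4, with very little spread in either group. Its rise was 0.31 ± 0.06 in log2 units (edgeR adjusted p = 0.0169). M6pr, a receptor for the tag, fell from 152 ± 8.09 to 129 ± 1.88 CPM (-0.24 ± 0.06, edgeR adjusted p = 0.0332), but passed among the fits with 1 library left out only without control replicate 1 or 4 (edgeR adjusted p otherwise up to 0.0951).

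Of 36 autophagy genes 2 fell and none rose. Atg101, part of the kinase complex that starts autophagy, had 31.5 ± 4.23 and 24.2 ± 1.87 CPM (-0.38 ± 0.10, edgeR adjusted p = 0.0429), and Vmp1, a membrane protein of autophagosome formation, 168 ± 15.9 and 129 ± 16.2 CPM (-0.38 ± 0.10, edgeR adjusted p = 0.0457). Of 25 tested genes of TFEB relatives and mTORC1 control 2 fell and none rose. Tsc1, a partner of Tsc2 in the complex that restrains mTORC1, had 39.1 ± 5.45 and 28.9 ± 1.93 CPM (-0.44 ± 0.10, edgeR adjusted p = 0.0253). Depdc5, which forms another such complex with Nprl2 and Nprl3, had 17.6 ± 1.35 and 14.1 ± 1.002 CPM (-0.32 ± 0.08, edgeR adjusted p = 0.0415). Their partners Tsc2, Nprl2 and Nprl3 were not called, with log2 fold changes of 0.09, -0.02 and -0.01. None of these 4 calls held with every library left out in turn. Atg101 was lost in 7 of the 8 such fits (all but the one without control replicate 3), Vmp1 in 6 (all but those without control replicate 1 or high-fat replicate 1), Tsc1 in 4 (those that omit control replicate 4 or any of high-fat replicates 2, 3 and 4) and Depdc5 in 6 (all but those without control replicate 4 or high-fat replicate 1). The highest edgeR adjusted p were 0.113, 0.122, 0.0777 and 0.115.

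**Figure D5:**
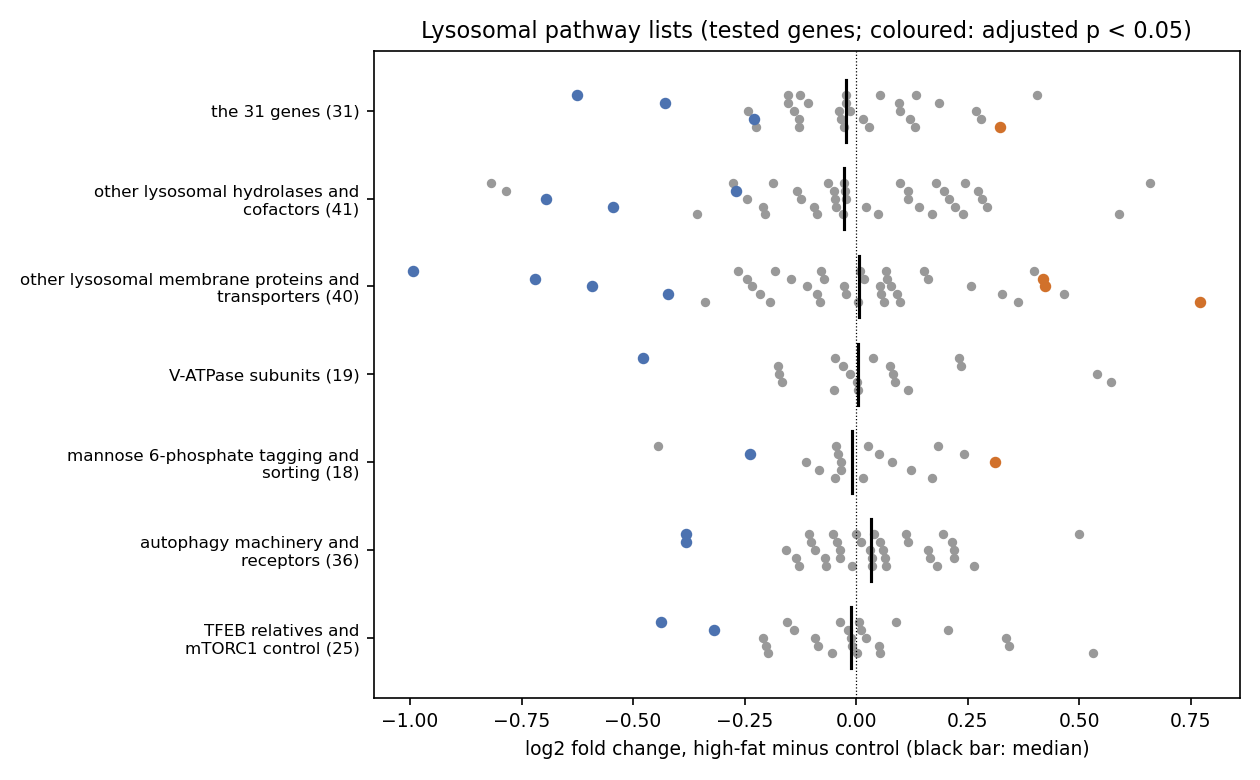
Log2 fold change, high-fat minus control, of the 31 genes and of the tested genes in 6 further lysosomal lists (number of genes in parentheses); coloured points passed an adjusted p of 0.05 and black bars mark medians. The medians of all lists lie near 0 and called genes are scattered through them.

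By promoter, of the 11 genes with a CACGTG core 2 fell (Ctsl and Naglu) and none rose. Of the 18 without it 1 rose (Ppt1) and none fell. Over all tested genes 5.86% were called lower and 3.75% higher. A link between the core and the calls was not tested, and these counts are too small to show one. The log2 fold changes of the genes with and without the core ran from -0.62 to 0.19 and from -0.23 to 0.40. Lamp1 with 4 cores, Mcoln1 with 2 and Cln3 with the full element were not called. Ctsb and Ctsh were not searched.

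The sample label of liver was checked against markers of its cell types. Of 8 hepatocyte markers 7 were found by name and were among the abundant genes, led by Alb with 58206 CPM in control and 40226 CPM in high-fat libraries. Their summed level was 66178 to 107124 CPM in control and 58229 to 62275 CPM in high-fat libraries. The sum was thus lower in every high-fat library than in any control. So were 9.97% of all tested genes, Ctsl, Ctsh and Naglu among them. Of the 7, Serpina1a and Ahsg fell (log2 fold changes -0.68 and -0.44, edgeR adjusted p = 0.0201 and 0.0450) and none rose, while Hnf4a, the hepatocyte transcription factor, had 528 and 535 CPM. Serpina1a passed in 5 and Ahsg in 1 of the 8 fits with 1 library left out. The part of hepatocyte content in the 3 lysosomal falls was not tested. No marker of endothelial cells (8 tested), stellate cells (6), lymphocytes (4), neutrophils (2), cholangiocytes (4) or lipid-associated macrophages (4) was called by edgeR. In the same order the median log2 fold changes of these lists were 0.04, -0.04, 0.37, 0.34, -0.20 and 0.77. Of the 4 lipid-associated macrophage markers 3 had a log2 fold change above 0. These lists are short, so the missing calls do not show that the cell types were unchanged. Of 5 adipocyte markers Cfd alone had enough counts to be tested, and it rose (4.74, edgeR adjusted p = 0.00525). Adipoq, which was not tested, had 42, 0, 0 and 32 counts in control replicates 1 to 4. In high-fat replicates 1 to 4 Adipoq had 2, 2, 3 and 10 counts, so it did not share the rise of Cfd. Adipocyte content was not tested.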

How the data were processed

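Liver RNA of 8 mice (4 per diet) was sequenced from stranded total RNA libraries, per the labels' protocols. The deposited data are raw counts per gene, as whole numbers, on mm10. The submitters' processing notes list TopHat2 (2.1.1), Trimmomatic (0.32) and bcl2fastq (2.20.0.422); the program that counted reads, whether it used strand, and its annotation are not given in the sources used. Overlapping or near-identical genes may therefore share reads. Columns were matched to samples by title. Replicate numbers follow sample order and pair nothing.

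The main test was the quasi-likelihood test of edgeR 4.0.16 (R 4.3.3) on all 8 libraries without covariates, after filterByExpr (14088 genes kept, with 99.9% of counts) and TMM scaling. The Benjamini-Hochberg adjustment ran over all tested genes, with calls at 0.05. The standard error is the absolute log2 fold change over the square root of F. All 31 genes are named, and from each other list up to 4 called genes by smallest p. The 31 genes and all lists were chosen with earlier results of these data known. Alternatives were other scalings, DESeq2 1.42.0, limma-voom 3.58.1, other count filters, 1 surrogate variable (sva 3.50.0) and the table without its 10 most abundant genes. Further ones were a threshold of 0.01, each library left out in turn, and the 2 controls with most Adipoq left out. These 2 were chosen by Adipoq alone, and the adipocyte marker Cfd was higher in every high-fat library than in any control. Correcting each library for gene length and GC content (GENCODE M21, 99.7% of tested genes) was chosen after seeing the data. The test was also run on simulated counts. Few of the 14088 genes were changed there, equally often up and down, and scaling did not differ by diet. In the data more genes were called and scaling factors differed by diet, so these shares may not carry over. On the simulated counts the test called 82% of the genes changed by 1 in log2 units and 27% of those changed by 0.5. Of its calls on the simulated counts 8.4% were false. Promoter sequences come from RefSeq (GRCm38.p6), and gene coordinates from the deposited table.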

Additional observations from a re-analysis of the deposited data

Results flagged for a closer look

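Among 120 groups of 4 libraries examined for a library far from the other 3 (the lysosomal genes, the other named genes, marker sums and depth), 4 were flagged, and chance flags about 1 in 20 groups. In control replicate 3, Ctsa had 183 CPM against 119 to 128 CPM in the other controls, and Ctsz had 287 CPM against 175.5 to 190.0 CPM. Smpd1 had 54.3 CPM in control replicate 4 against 58.9 to 59.4 CPM in the others. The hepatocyte marker Ahsg had 3314 CPM in high-fat replicate 3 against 4143 to 4306 CPM in the others. No explanation of these values was tested.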

How the results depend on the processing

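No paired analysis was possible because the labels give no replicate numbers. Over the 31 genes and 20 alternatives (620 comparisons), 557 kept direction and side of the threshold, 24 lost the call, 3 gained it and 36 changed sign, all of the last in genes without a call. Ctsl passed in every alternative. Naglu missed only the threshold of 0.01, Ctsh was lost in 12 and Ppt1 in 11. The cause of each change was not tested.

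Among the 31 genes, 2 rose with library totals alone and 2 with DESeq2. None rose with 1 surrogate variable, without the 2 controls with most Adipoq or after removal of length and GC trends (chosen after seeing the data). At a threshold of 0.01, 0 rose and 1 fell. With 1 library left out 0 to 2 rose and 2 to 3 fell. Of all tested genes, those called higher numbered 1111 with library totals alone, 860 with DESeq2, 316 with 1 surrogate variable, 282 without the 2 controls, 148 at 0.01 and 293 to 636 with 1 library left out. Those called lower numbered 534, 497, 461 and 221 with library totals, the surrogate variable, the 2 controls left out and 0.01, and 432 to 843 with 1 library left out; DESeq2 gave 1193.

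Log2 fold changes that changed sign were as follows. With 1 surrogate variable Scarb2 was 0.0375. After removal of length and GC trends Tfe3 was -0.00954 and Tpp1 -0.035. With library totals alone Scarb2 was 0.055, Cln3 0.072, Ctsb 0.068, Ctsd 0.074, Gaa 0.079 and Manba 0.057. With upper-quartile factors Ctsd was 0.00125 and Gaa 0.00845. Without the 2 controls Tfe3 was -0.029, Scarb2 0.059, Ctss -0.027, Tpp1 -0.028, Gusb -0.060 and Man2b1 -0.00564. With 1 library left out Cln3 ranged from -0.0999 to 0.0605, Ctsa from -0.203 to 0.0271, Ctsb from -0.0494 to 0.0193, Ctsd from -0.0891 to 0.0343, Ctsz from -0.231 to 0.0349, Gaa from -0.0823 to 0.0428, Manba from -0.101 to 0.0442, Scarb2 from -0.0779 to 0.0193, Tfe3 from -0.0153 to 0.0680 and Tpp1 from -0.0156 to 0.0642.

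The 95% intervals of the 27 genes without a call reached from 0.669 to 1.65 times the control level, with 4 mice per diet. Each interval holds for 1 gene in the main fit, so together they set no joint bound on undetected changes.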
